A study of Homo sapiens and Mus musculus with 17 samples.

Results

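The genes described here encode the subunits of the HRD1 complex and the derlins, which carry out endoplasmic reticulum-associated degradation (ERAD). They were chosen by name, as the rows of the human and the mouse expression tables whose gene symbol is SEL1L, SYVN1, OS9, ERLEC1, DERL1, DERL2, DERL3, UBE2J1, HERPUD1 or FAF2. All 10 were found once among the 62714 human genes and once among the 55491 mouse genes. PolyA RNA was sequenced in 9 libraries of HEK293T, a human embryonic kidney line, and in 8 libraries of brown adipose tissue (BAT) of mice. HEK293T cells were wild type (WT, cells given an empty plasmid with no guide RNA), SEL1L KO or HRD1 KO, both made with CRISPR/Cas9, with 3 libraries each. BAT came from C57BL/6J mice aged 12 weeks, with 3 WT libraries, 3 labelled Sel1L KO (Sel1l flox/flox; Ucp1-Cre) and 2 labelled Hrd1 KO (Hrd1 flox/flox; Ucp1-Cre). No group had a drug treatment in the labels. The Ucp1 promoter drives Cre in brown adipocytes, so other cells of the tissue keep both genes, and in bulk tissue fewer cells of a type and less RNA per cell cannot be told apart. Whether a HEK293T KO line is 1 clone, and whether libraries come from separate cultures, is not given in the sources used here, so p-values for HEK293T measure the spread between these libraries, which may be technical.

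ERAD clears misfolded proteins from the endoplasmic reticulum (ER) by moving them to the cytosol for ubiquitination and digestion by the proteasome. HRD1, the product of SYVN1, is a ubiquitin ligase of the ER membrane, and SEL1L is its partner, which stabilizes HRD1 and receives substrates in the ER lumen. OS9 and ERLEC1 are lectins that read trimmed sugars on misfolded glycoproteins, derlins are membrane proteins of the exit path, UBE2J1 is a ubiquitin-conjugating enzyme, HERPUD1 is a membrane protein that helps assemble the complex, and FAF2 recruits the VCP ATPase. Many ERAD genes are known targets of the unfolded protein response (UPR), the program that the ER sensors IRE1, ATF6 and PERK start when unfolded proteins accumulate.

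Expression is given as FPKM (fragments per kilobase of transcript and per set number of mapped fragments), which is scaled by gene length and by library, so levels of different genes can be set side by side. Reads in each library are unknown from FPKM, and the estimated relative depth varied 1.88-fold between HEK293T libraries and 1.74-fold between BAT libraries. All fold changes below are differences of log2(FPKM + 0.1), a scale that understates changes of low genes, with standard errors (SE) from a limma fit over 15796 human or 12473 mouse genes. A gene is called at a Benjamini-Hochberg adjusted p under 0.05 in HEK293T and under 0.01 in BAT. The 7 markers of HEK293T, among them PAX2 (1.93 to 3.05 FPKM over the libraries), and the 10 of brown adipocytes, among them Ucp1 (1138 to 3453 FPKM), all had a mean of at least 1 FPKM in every group of their own table. In SEL1L KO the mean of NEFM, a neurofilament subunit, rested on 1 library (0.34, 0.11 and 50.89 FPKM against 23.02 to 39.98 in WT), and LHX1, a kidney transcription factor, was 0.64 to 1.80 FPKM in WT and 1.89 to 6.15 in HRD1 KO. BAT Sel1L KO replicate 1 stood apart, with an array weight of 0.135 where the other BAT libraries had 0.765 to 3.24. Its Ppargc1a, a regulator of mitochondrial genes, was 387 FPKM against 4.13 to 14.4 in the other BAT libraries. Of the 10 members, 7 had their highest BAT value in this library, so BAT fold changes that it moves are given with and without it, and all others with it. In BAT Hrd1 KO the median gene was 0.42 (log2) above WT, and median-ratio scaling moved this to -0.02.

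SEL1L (ENSG00000071537), on chromosome 14 of GRCh38 from 81471547 to 81533853, was measured at 4.39, 8.74 and 12.85 FPKM in HEK293T WT, at 1.82, 3.36 and 2.59 in SEL1L KO and at 3.79, 19.27 and 24.06 in those labelled HRD1 KO. Every SEL1L KO library lay below every WT library, while the HRD1 KO libraries spanned the WT range. The fold change was -1.62 ± 0.65 (SE) in SEL1L KO, with an unadjusted p of 0.0320 and an adjusted p of 1.00, and 0.61 ± 0.65 in the libraries labelled HRD1 KO, and neither was called. The WT libraries themselves differed, and within a replicate number the ratio of SEL1L KO to WT was 0.415, 0.384 and 0.202. Between the knockouts, SEL1L was 2.22 ± 0.65 higher in the libraries labelled HRD1 KO, with an unadjusted p of 0.00647 and an adjusted p of 1.00.

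SYVN1 (ENSG00000162298; chromosome 11, 65121780 to 65134532), the gene targeted in HRD1 KO, was not lower there. It stood at 16.95, 16.70 and 16.92 FPKM in WT, at 22.47, 18.48 and 19.83 under the HRD1 KO label and at 28.93, 28.36 and 25.92 in SEL1L KO. The 3 groups did not overlap, with WT lowest and SEL1L KO highest. FPKM of a whole gene holds no information on its exons, so these values do not show whether the transcript was edited, and HRD1 KO is used as a label. The fold changes were 0.26 ± 0.17 in HRD1 KO and 0.71 ± 0.17 in SEL1L KO, where the unadjusted p was 0.00185 and the adjusted p 1.00. With the replicate number as a block the adjusted p in SEL1L KO was 0.269, so neither fit called it.

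**Figure D1:**
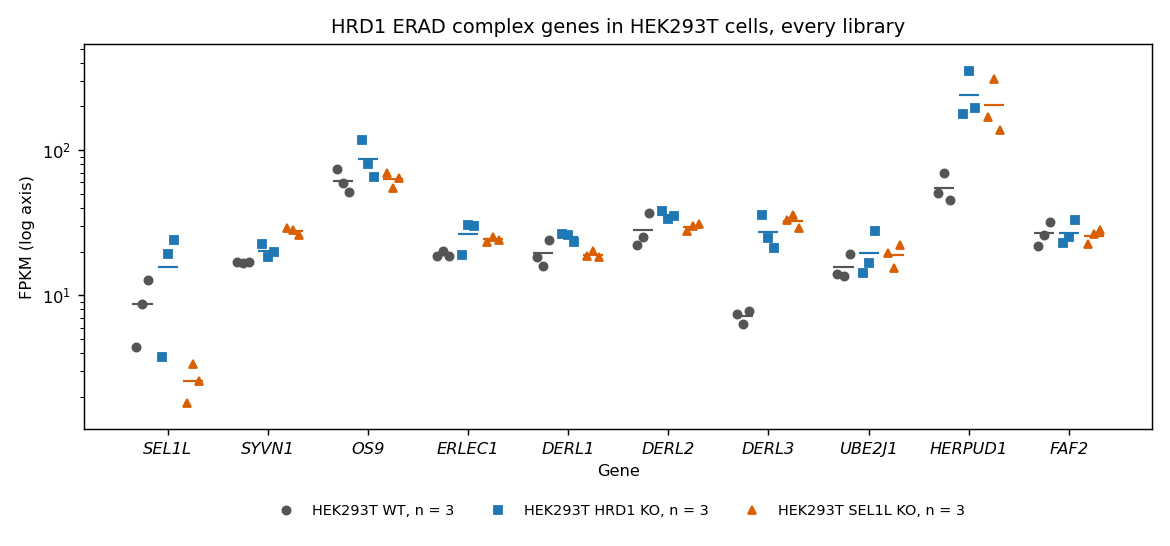
FPKM (log axis) of the 10 genes in the 9 HEK293T libraries, with 1 symbol per library and a line at each group's mean. DERL3 and HERPUD1 stand clear of WT in both knockouts, SEL1L is low in SEL1L KO, and SYVN1 is lowest in WT.

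Of the 10 members, 1 was called in HEK293T HRD1 KO against WT and 1 in SEL1L KO against WT, both times DERL3, and both times higher. Over all genes tested, 0.057% were called higher in HRD1 KO and 0.0317% in SEL1L KO. Both comparisons use the same 3 WT libraries. DERL3 (ENSG00000099958; chromosome 22, 23834503 to 23839128) is the derlin known from secretory tissues. It was measured at 7.47, 6.38 and 7.84 FPKM in WT, 35.51, 24.76 and 21.05 in HRD1 KO and 32.81, 35.81 and 29.22 in SEL1L KO. Every knockout library was above the highest WT library, and the knockouts overlapped. Its means were 3.75 times WT in HRD1 KO and 4.51 times WT in SEL1L KO, with fold changes of 1.86 ± 0.23 (adjusted p = 0.0252) and 2.16 ± 0.23 (adjusted p = 0.0139). The call in HRD1 KO was lost when any of 7 of the 9 libraries was left out, all but HRD1 KO replicates 1 and 3. Over all 9 leave-outs the fold change was 1.65 (without HRD1 KO replicate 1) to 2.03 (without HRD1 KO replicate 3). The adjusted p was up to 0.151. The call in SEL1L KO was lost without WT replicate 1 or 2 or SEL1L KO replicate 1 or 2, with an adjusted p of up to 0.181.

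HERPUD1 (ENSG00000051108; chromosome 16, 56932142 to 56944864) had the highest knockout levels of the complex. It stood at 50.32, 69.42 and 45.55 FPKM in WT, 176.24, 353.41 and 193.99 in HRD1 KO and 167.97, 310.99 and 138.69 in SEL1L KO. The lowest knockout library was above the highest WT library, and replicate 2 was the highest library of each group. The fold changes were 2.08 ± 0.35 in HRD1 KO (adjusted p = 0.149) and 1.83 ± 0.35 in SEL1L KO (adjusted p = 0.392). Within a replicate number, the ratio to WT was 3.50, 5.09 and 4.26 in HRD1 KO and 3.34, 4.48 and 3.04 in SEL1L KO. With the replicate number as a block, HERPUD1 was called higher in both, with adjusted p of 0.000663 and 0.00261 and an SE of 0.14, in a fit that called 0.152% and 0.076% of all genes higher.

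The other members had smaller differences, and none was called with or without the block. OS9 was 116.64, 80.63 and 65.48 FPKM in HRD1 KO against 74.01, 59.55 and 51.62 in WT, a fold change of 0.48 ± 0.24, and 0.04 ± 0.24 in SEL1L KO. Its groups overlapped, although within each replicate number the HRD1 KO library was 1.27 to 1.58 times its WT library. ERLEC1, the other lectin, was 23.43, 25.34 and 24.23 FPKM in SEL1L KO, above its WT values of 18.62, 20.15 and 18.56, with a fold change of 0.35 ± 0.21. In HRD1 KO ERLEC1 ranged from 18.91 to 30.48 FPKM (fold change 0.44 ± 0.21) and overlapped WT. DERL1 and DERL2 had fold changes of 0.40 ± 0.20 and 0.38 ± 0.21 in HRD1 KO, and of -0.01 ± 0.20 and 0.11 ± 0.21 in SEL1L KO. UBE2J1 differed by 0.27 ± 0.28 and 0.29 ± 0.28, and FAF2 by 0.02 ± 0.22 and -0.04 ± 0.22, all with overlapping groups. Without overlap in any library, 3 of 10 members were above WT in HRD1 KO and 4 of 10 in SEL1L KO, where 1.96% and 2.41% of all genes tested were. The members' median fold change was 0.42 in HRD1 KO and 0.20 in SEL1L KO, and that of all genes -0.05 and -0.06.

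Between the HEK293T knockouts 0 of 10 members were called in the limma fit, as were 0% of all genes, and 2 members had an unadjusted p under 0.05, where 2.34% of all genes did. These were SEL1L, and SYVN1 at -0.45 ± 0.17 in HRD1 KO relative to SEL1L KO. DERL3 differed by -0.30 ± 0.23 and HERPUD1 by 0.25 ± 0.35.

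In HEK293T WT the order of the members' FPKM levels was OS9, HERPUD1, DERL2, FAF2, DERL1, ERLEC1, SYVN1, UBE2J1, SEL1L and DERL3, from 61.7 ± 11.4 (SD, n = 3) for OS9 to 7.23 ± 0.76 for DERL3. Neighbours in this order whose WT ranges did not overlap were HERPUD1 and DERL2, ERLEC1 and SYVN1, and UBE2J1 and SEL1L, and the ranges of the other neighbouring pairs overlapped.

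Promoter sequences are shown because the UPR acts through short motifs, and because HERPUD1 and UBE2J1 hold the longer ones and SEL1L and SYVN1 are the targeted genes. RefSeq promoters of GRCh38.p14, from 250 bases before to 50 after the start of a gene, were at hand for 8 of the 10 human members, all but DERL1 and DERL3. Both strands were searched for the ERSE (CCAAT and CCACG with 9 free bases between them), the ERSE-II (ATTGG and CCACG with 1 free base between them), the UPRE (TGACGTGG), CCAAT and CCACG. ERSE-II contains CCACG and, as ATTGG, the CCAAT box read on the other strand, and matches of the UPRE overlap CCACG on the other strand. Capitals mark matches on either strand.
HERPUD1, chr16:56931892-56932191, plus strand: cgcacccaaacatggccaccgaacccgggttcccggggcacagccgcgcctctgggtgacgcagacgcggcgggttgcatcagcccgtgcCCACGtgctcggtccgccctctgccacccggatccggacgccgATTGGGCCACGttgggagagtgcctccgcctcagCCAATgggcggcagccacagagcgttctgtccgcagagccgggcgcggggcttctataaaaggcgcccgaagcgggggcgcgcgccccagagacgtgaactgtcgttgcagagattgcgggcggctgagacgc
UBE2J1, chr6:89352673-89352972, minus strand: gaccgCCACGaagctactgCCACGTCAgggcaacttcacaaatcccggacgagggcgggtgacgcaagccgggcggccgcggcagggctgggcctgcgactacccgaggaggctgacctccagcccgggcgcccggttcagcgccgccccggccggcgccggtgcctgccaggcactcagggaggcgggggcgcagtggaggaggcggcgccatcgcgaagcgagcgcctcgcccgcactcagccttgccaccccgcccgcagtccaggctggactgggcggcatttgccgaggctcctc
SEL1L, chr14:81533804-81534103, minus strand: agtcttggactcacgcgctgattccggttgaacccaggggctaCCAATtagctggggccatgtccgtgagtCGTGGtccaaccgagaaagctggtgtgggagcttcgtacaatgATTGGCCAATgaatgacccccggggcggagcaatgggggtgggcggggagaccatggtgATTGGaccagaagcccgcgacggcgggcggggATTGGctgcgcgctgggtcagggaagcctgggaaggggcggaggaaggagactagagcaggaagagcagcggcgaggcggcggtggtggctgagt
SYVN1, chr11:65134470-65134769, minus strand: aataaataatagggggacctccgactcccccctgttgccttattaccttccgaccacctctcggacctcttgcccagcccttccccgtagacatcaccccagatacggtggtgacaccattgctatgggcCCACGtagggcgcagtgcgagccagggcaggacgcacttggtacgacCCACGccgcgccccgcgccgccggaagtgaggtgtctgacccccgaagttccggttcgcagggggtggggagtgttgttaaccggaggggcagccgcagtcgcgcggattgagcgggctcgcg

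The ERSE-II was found in 1 of the 8 members, HERPUD1, and in 0.0541% of all 35116 promoters. The UPRE was found in 1 of 8, UBE2J1, and in 0.729% of all promoters. The full ERSE was in 0 of 8 and in 0.0769% of all. Only exact matches were counted. The HERPUD1 sequence holds CCAAT followed, after 9 free bases, by CCACA, which differs from the ERSE in its last letter alone. CCAAT was in 4 of 8 and 34.6% of all, and CCACG in 7 of 8 and 38.1% of all. The ERSE-II match in HERPUD1 begins 117 bases before the start site. A match describes these letters only, and no binding was measured here.

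In BAT neither targeted gene was low in all libraries of its label. Sel1l (ENSMUSG00000020964), on chromosome 12 of GRCm38 from 91806043 to 91849157, was measured at 9.10, 12.88 and 10.26 FPKM in WT, 25.20, 8.17 and 8.38 in the libraries labelled Sel1L KO, and both libraries labelled Hrd1 KO had more, 57.58 and 65.22. Replicates 2 and 3 of Sel1L KO were below every WT library, replicate 1 was above all of them, and both Hrd1 KO libraries were the highest in the set. The fold change in Sel1L KO was 0.17 ± 0.41 with all libraries and -0.36 ± 0.17 (adjusted p = 0.247) without replicate 1. In Hrd1 KO, Sel1l was 5.71 times WT, with a fold change of 2.52 ± 0.45 and an adjusted p of 0.0275, short of the threshold. It was called at the same fold change without Sel1L KO replicate 1 (adjusted p = 0.000414), a fit in which 5.91% of all genes were called higher in Hrd1 KO and 0.398% in Sel1L KO against 0.289% and 0.0882% with all libraries, and in a fit of WT and Hrd1 KO alone (adjusted p = 0.00152). With median-ratio scaling of all libraries it was 2.07 at an adjusted p of 0.10.

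Syvn1 (ENSMUSG00000024807; chromosome 19, 6046576 to 6053712) was 5.37, 5.65 and 5.20 FPKM in WT, 14.05 and 13.77 under the Hrd1 KO label and 118.36, 16.55 and 9.96 in Sel1L KO. Every knockout library was above every WT library, and Sel1L KO replicate 1 was 7.15 times the next highest library. The fold changes were 1.35 ± 0.86 in Hrd1 KO (adjusted p = 0.332) and 2.30 ± 0.77 in Sel1L KO (adjusted p = 0.179). Without Sel1L KO replicate 1 they were 1.35 ± 0.22 (adjusted p = 0.00662, called) and 1.23 ± 0.22 (adjusted p = 0.0275, not called). With median-ratio scaling of all libraries the fold change in Hrd1 KO was 0.90 (adjusted p = 0.666).

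**Figure D2:**
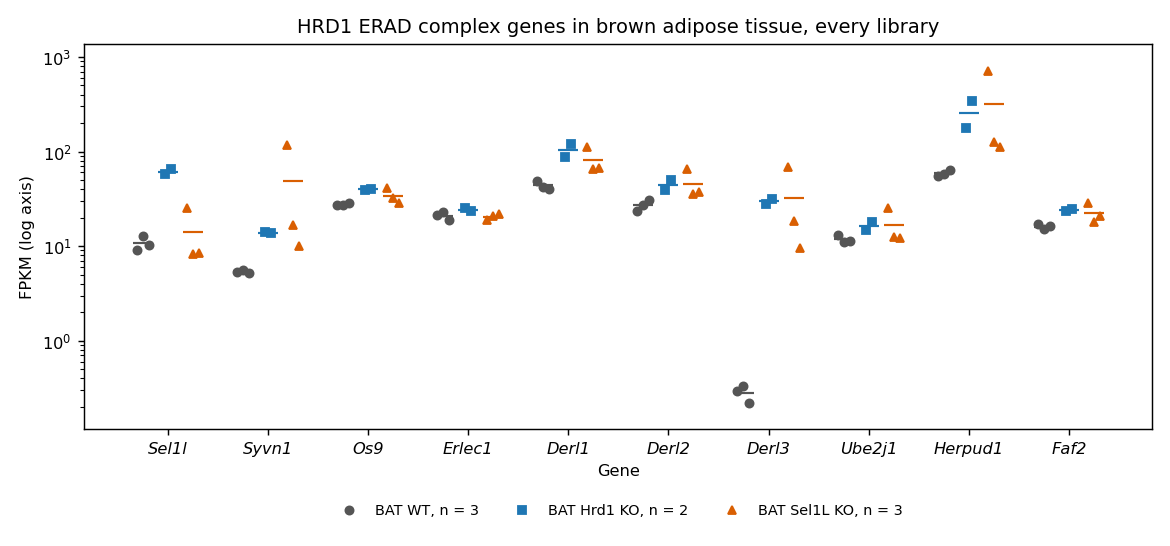
FPKM (log axis) of the 10 genes in the 8 BAT libraries, with 1 symbol per library and a line at each group's mean. Derl3 is near the bottom of the axis in WT and between 9.47 and 69.34 FPKM in the knockouts, and the highest Sel1L KO symbol for most genes is replicate 1.

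Derl3 was the member called in each BAT knockout against the same 3 WT libraries, and it was higher. Over all genes, 0.289% were called higher in Hrd1 KO and 0.0882% in Sel1L KO. Derl3 passed the filter on low values through the knockout libraries alone, so nothing is read from this count, and with no filter it was called in neither. In Hrd1 KO 36 genes were called higher and 10 lower, and with median-ratio scaling 0 and 5, while in Sel1L KO 11 and 2 became 0 and 1. Derl3 (ENSMUSG00000009092; chromosome 10, 75893413 to 75895941) stood at 0.29, 0.33 and 0.22 FPKM in WT, 27.90 and 31.72 in Hrd1 KO and 69.34, 18.47 and 9.47 in Sel1L KO. The filter asked for 1 FPKM in 2 libraries, and its WT mean of 0.28 FPKM was higher than 1.71% of the genes tested. The fold change was 6.31 ± 0.69 in Hrd1 KO (adjusted p = 0.00681) and 5.94 ± 0.61 in Sel1L KO (adjusted p = 0.00938), and with a pseudocount of 1 in place of 0.1 they were 4.59 and 4.25 and were not called. Quantile normalization and the replicate block ended both calls as well. With median-ratio scaling they were 5.89 and 5.87 with adjusted p of 0.0226 and 0.0197, past the threshold in neither, and 0% of all genes were called higher in this fit. Of the 8 libraries, leaving out any but Sel1L KO replicate 1 or 3 ended both calls. Over all 8 leave-outs the fold changes were 6.19 to 6.40 and 5.14 to 6.57, with adjusted p of up to 0.0715 and 0.08. Without Sel1L KO replicate 1 the fold changes were 6.31 ± 0.30 and 5.14 ± 0.30, and the adjusted p were 6.76e-05 and 0.000405.

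The other derlins were higher in every knockout library than in WT, without a call. Of all genes tested, 51.1% were above WT in every Hrd1 KO library and 17.7% in every Sel1L KO library. Derl1 was 87.64 and 119.76 FPKM in Hrd1 KO and 112.86, 65.52 and 67.33 in Sel1L KO against 49.26, 42.59 and 40.01 in WT. It differed from WT by 1.22 ± 0.26 in Hrd1 KO (adjusted p = 0.0435) and by 0.85 ± 0.24 in Sel1L KO (adjusted p = 0.123). Derl1 was called in Hrd1 KO without Sel1L KO replicate 1 (adjusted p = 0.00337) and differed by 0.60 ± 0.16 in Sel1L KO (adjusted p = 0.0799). Derl2 had fold changes of 0.70 ± 0.28 and 0.69 ± 0.25, from WT values of 23.73, 27.45 and 30.97 FPKM, and the second became 0.41 ± 0.16 without that library. After median-ratio scaling the fold changes in Hrd1 KO were 0.77 for Derl1 (adjusted p = 0.276) and 0.25 for Derl2 (adjusted p = 0.746).

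Herpud1 (ENSMUSG00000031770; chromosome 8, 94386438 to 94395377) was 54.93, 58.53 and 63.61 FPKM in WT, 176.43 and 340.06 in Hrd1 KO and 717.70, 127.57 and 112.58 in Sel1L KO. All knockout libraries lay above WT, over a wide range. The fold change was 2.05 ± 0.71 in Hrd1 KO (adjusted p = 0.117) and 1.88 ± 0.64 in Sel1L KO (adjusted p = 0.186). Without Sel1L KO replicate 1 they were 2.05 ± 0.25 (adjusted p = 0.00259, called) and 1.02 ± 0.25 (adjusted p = 0.0619). With median-ratio scaling of all libraries the fold change in Hrd1 KO was 1.60 (adjusted p = 0.330).

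The lectins, the conjugating enzyme and the VCP recruiter had the smallest fold changes in BAT Hrd1 KO. Os9 was 39.20 and 40.47 FPKM in Hrd1 KO and 40.80, 32.44 and 28.81 in Sel1L KO against 27.06, 27.35 and 28.59 in WT, with fold changes of 0.52 ± 0.18 and 0.28 ± 0.16. Erlec1 differed by 0.21 ± 0.17 and -0.04 ± 0.15, Ube2j1 by 0.47 ± 0.32 and 0.42 ± 0.29, and Faf2 by 0.59 ± 0.21 and 0.45 ± 0.19. None of these was called. The Sel1L KO values without replicate 1 were 0.14 ± 0.11 for Os9, 0.02 ± 0.13 for Erlec1, 0.07 ± 0.15 for Ube2j1 and 0.27 ± 0.13 for Faf2. After median-ratio scaling, which removes the shift of the median gene by 0.42 in Hrd1 KO, the fold changes of Os9, Erlec1, Ube2j1 and Faf2 in Hrd1 KO were 0.07, -0.24, 0.02 and 0.14. All 10 members lay above WT in every Hrd1 KO library before scaling, where 51.1% of all genes tested did. In Sel1L KO 7 of 10 did, where 17.7% of all genes did. The members' median fold change was 0.96 in Hrd1 KO and 0.57 in Sel1L KO, against 0.42 and 0.09 for all genes tested. The median in Sel1L KO was 0.34 without replicate 1, against 0.16 for all genes.

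**Figure D3:**
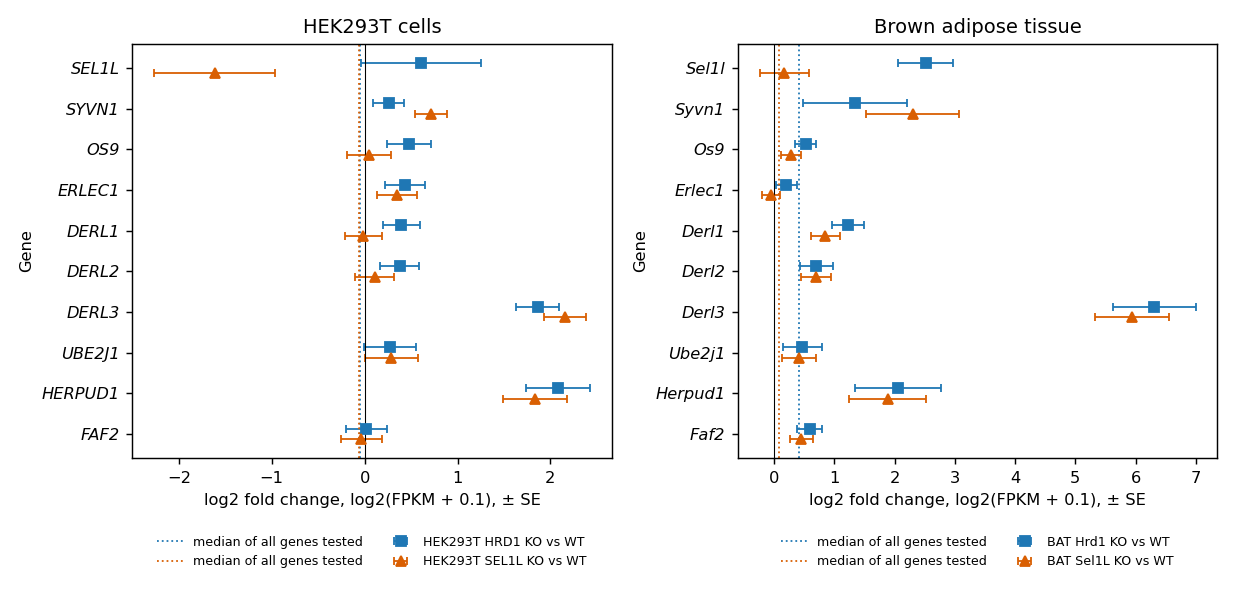
Log2 fold change of each gene against WT with its SE, on the log2(FPKM + 0.1) scale, in HEK293T cells (left) and BAT (right), with dotted lines at the median of all genes tested. DERL3 and HERPUD1 are far to the right in all 4 comparisons, and Derl3 reaches 6.31 in BAT Hrd1 KO. In BAT, Sel1l (2.52) is right of Herpud1 (2.05) in Hrd1 KO, and Syvn1 (2.30) is right of Herpud1 (1.88) in Sel1L KO.

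Between the BAT knockouts 0 of 10 members were called in the limma fit, where 0.0401% of all genes were, and 1 member, Sel1l, had an unadjusted p under 0.05, where 16.7% of all genes did. Its fold change was 2.34 ± 0.45 in Hrd1 KO relative to Sel1L KO (adjusted p = 0.119), and 2.87 ± 0.19 (adjusted p = 0.00166, called, as were 0.065% of all genes) without Sel1L KO replicate 1. Syvn1 differed by -0.95 ± 0.86 and Derl3 by 0.37 ± 0.69 with all libraries, and by 0.11 ± 0.24 and 1.16 ± 0.33 without that library.

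In BAT WT the order of FPKM levels was Herpud1, Derl1, Os9, Derl2, Erlec1, Faf2, Ube2j1, Sel1l, Syvn1 and Derl3, from 59.0 ± 4.36 (SD, n = 3) for Herpud1 to 0.28 ± 0.056 for Derl3. The ranges of Os9 and Derl2, and of Ube2j1 and Sel1l, overlapped, and those of the other neighbours did not.

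The mixture of derlin transcripts was compared as the share of DERL3 in the summed FPKM of the 3 derlins, which does not depend on the scaling of a library. In HEK293T it was 15.5%, 13.5% and 11.4% in WT, 35.3%, 29.3% and 26.4% in HRD1 KO and 41.3%, 41.6% and 37.2% in SEL1L KO. The 3 groups did not overlap, and SEL1L KO was the highest. In BAT the share was 0.309% to 0.469% in WT, 18.0% and 15.7% in Hrd1 KO and 28.1%, 15.5% and 8.31% in Sel1L KO. With 3 against 3 libraries the smallest p that a two-sided exact permutation test allows is 0.1, and with 2 against 3 it is 0.2, so this share and the ratios that follow are given as values with no test.

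The ratio of SYVN1 to SEL1L FPKM, the ligase over its partner, was also free of library scaling. HEK293T WT libraries had 1.32 to 3.86, HRD1 KO libraries 0.824 to 5.93 and SEL1L KO libraries 8.44 to 15.9, so SEL1L KO lay above all others. In BAT it was 0.439 to 0.590 in WT, 0.244 and 0.211 in Hrd1 KO and from 1.19 to 4.70 in Sel1L KO, with no overlap between groups and Hrd1 KO lowest. For DERL1 over DERL2 the HEK293T groups overlapped, with WT at 0.639 to 0.824, HRD1 KO at 0.658 to 0.786 and SEL1L KO at 0.596 to 0.669. In BAT it was 1.29 to 2.08 in WT, 2.22 and 2.40 in Hrd1 KO and from 1.75 to 1.84 in Sel1L KO, so Hrd1 KO lay above the other libraries. OS9 over ERLEC1 overlapped between all HEK293T groups, at 2.17 to 6.17 over the libraries. In BAT Os9 over Erlec1 was 1.18 to 1.53 in WT and 1.56 and 1.74 in Hrd1 KO, without overlap, and the Sel1L KO libraries, at 1.33 to 2.18, overlapped both.

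**Figure D4:**
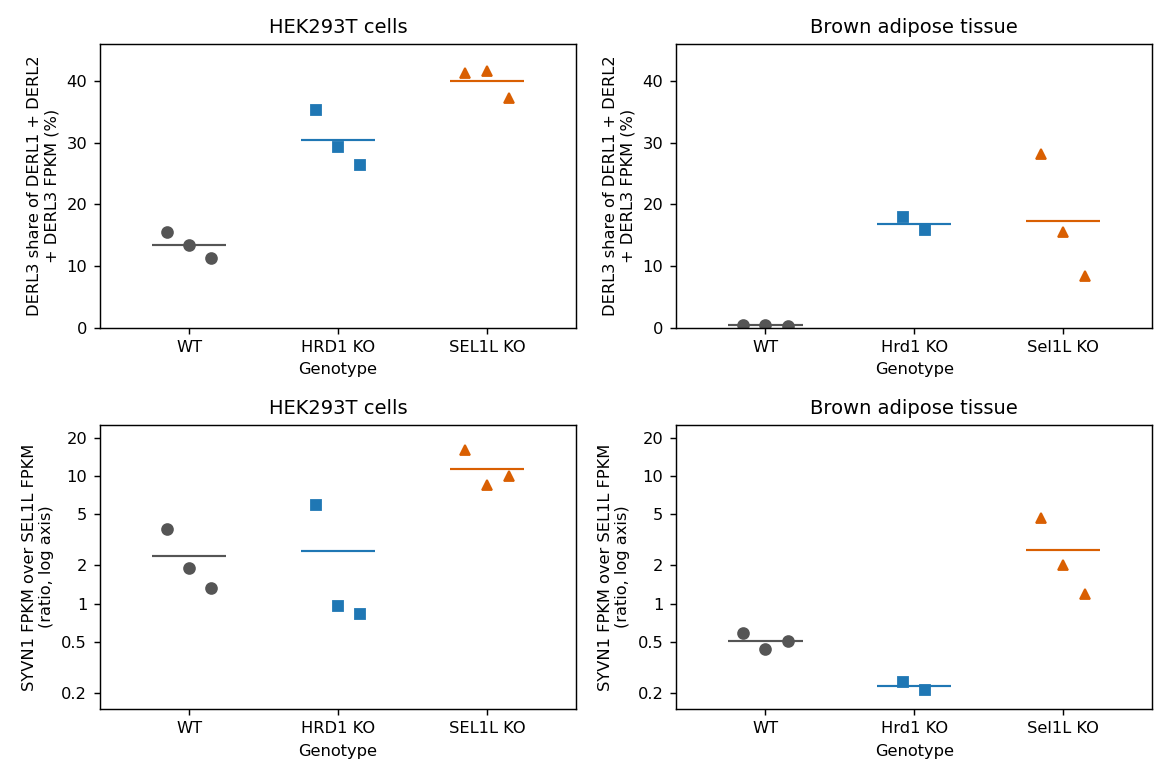
DERL3 share of the summed derlin FPKM (top, linear axis) and SYVN1 over SEL1L FPKM (bottom, log axis) in each library of HEK293T (left) and BAT (right), with a line at each group's mean. The share is lowest in WT in both systems, and the ratio is highest in the Sel1L KO groups and lowest in BAT Hrd1 KO.

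Other genes of the pathway were taken from lists. Of 33 further ERAD factors (other ligases, conjugating enzymes, the VCP complex and glycan-trimming enzymes), 32 were tested in HEK293T, where limma called 0 in either knockout against WT, with and without the block. Counting unadjusted p values under 0.05, HRD1 KO had 3 of them higher and 1 lower and SEL1L KO 1 higher, where 0.943% and 0.715% of all genes were higher by that rule. EDEM1, a mannosidase-like protein that hands glycoproteins to ERAD, had fold changes of 0.25 ± 0.38 in both. In BAT 31 were tested, and 1 was called higher in Hrd1 KO and 0 in Sel1L KO, where 8 were higher by the unadjusted rule. By that rule 25.4% of all BAT genes were higher in Hrd1 KO and 12.7% in Sel1L KO. The called gene was Txndc11, a thioredoxin-like partner of EDEM proteins, at 22.38 to 25.10 FPKM against 6.45 to 8.19 in WT (fold change 1.74 ± 0.21, adjusted p = 0.00797). Over all genes tested, 0.289% were called higher in Hrd1 KO and 0.0882% in Sel1L KO. Without Sel1L KO replicate 1 the list had 6 and 1 calls, in the fit where 5.91% and 0.398% of all genes were called higher. With median-ratio scaling the list had 0 and 0. Edem1 was 1.5 ± 0.19 (adjusted p = 0.0105) in Hrd1 KO and 1.02 ± 0.17 (adjusted p = 0.0414) in Sel1L KO. Edem1 was called in Hrd1 KO without Sel1L KO replicate 1 (adjusted p = 0.00177) and was 0.94 ± 0.16 in Sel1L KO (adjusted p = 0.0240).

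Of 16 targets of XBP1 and ATF6, mostly ER chaperones, 6 were called higher in HEK293T HRD1 KO and 2 in SEL1L KO, and 0 lower, where 0.057% and 0.0317% of all genes were called higher. Under the replicate block 10 and 8 were called, where 0.152% and 0.076% of all genes were higher. PDIA4, a disulfide isomerase, was 101.84 to 119.04 FPKM in WT libraries, 589.43 to 734.01 in those of HRD1 KO and 380.54 to 484.01 in those of SEL1L KO, fold changes of 2.59 ± 0.16 (adjusted p = 0.000348) and 2.02 ± 0.16 (adjusted p = 0.00377). MANF, a secreted ER stress protein, was called in both knockouts (1.54 ± 0.20 and 1.67 ± 0.20), and SDF2L1, PDIA6, HSP90B1 and CALR in HRD1 KO, at 1.29 to 1.94. With only the 2 genotypes compared, PDIA4 kept its call in both knockouts (adjusted p = 0.00341 and 0.0110). MANF then had an adjusted p of 0.0967 and 0.117, and SDF2L1, PDIA6, HSP90B1 and CALR 0.158 in HRD1 KO, so these were not called. HSPA5, the ER Hsp70 chaperone, had fold changes of 2.80 ± 0.45 (adjusted p = 0.126) and 2.35 ± 0.45 (adjusted p = 0.392), and with the block it was called in both (adjusted p = 1.04e-05 and 4.79e-05). DNAJB9, its J-domain partner, was 0.49 ± 0.44 and 0.60 ± 0.44. The median of the 16 was 1.35 in HRD1 KO and 1.06 in SEL1L KO.

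In BAT 3 of the 16 were called higher in Hrd1 KO (Xbp1, Pdia6 and Sdf2l1) and 2 in Sel1L KO (Pdia6 and Sdf2l1), where 0.289% and 0.0882% of all genes were. The medians were 2.35 and 2.32, and without Sel1L KO replicate 1 2.35 and 1.56. Sdf2l1, an ER chaperone cofactor, was 1.68 to 2.74 FPKM in WT libraries, 107.63 to 127.80 in those of Hrd1 KO and 57.98 to 346.10 in those of Sel1L KO. Xbp1, a transcription factor of the UPR, was 18.22 to 35.13 FPKM in WT and 110.79 to 118.35 in Hrd1 KO (fold change 2.10 ± 0.26, adjusted p = 0.00934). Hspa5 was 3.03 ± 0.66 (adjusted p = 0.0451) and 3.25 ± 0.59 (adjusted p = 0.0524), and without Sel1L KO replicate 1 it was called in both, at 3.03 ± 0.12 and 2.42 ± 0.12. Dnajb9 was 0.99 ± 1.01 (adjusted p = 0.532) and 1.54 ± 0.90 (adjusted p = 0.425). Without Sel1L KO replicate 1 Dnajb9 was 0.99 ± 0.29 (adjusted p = 0.0409) and 0.30 ± 0.29 (adjusted p = 0.580), called in neither. Without that library the calls in the list were 13 and 8, in the fit where 5.91% and 0.398% of all genes were called higher, and with median-ratio scaling they were 0 and 0. Of 8 genes of the PERK arm, limma called 0 in each knockout against WT in both systems, and 3 in BAT Hrd1 KO without Sel1L KO replicate 1. By the unadjusted rule 0 were higher in either HEK293T knockout, 3 in BAT Hrd1 KO and 2 in BAT Sel1L KO. DDIT3, the transcription factor CHOP, had fold changes of 0.82 ± 0.72 and 1.14 ± 0.72 in HEK293T, and Ddit3 of 2.57 ± 0.57 (adjusted p = 0.0456) and 2.04 ± 0.51 (adjusted p = 0.102) in BAT. Ddit3 was called in Hrd1 KO without Sel1L KO replicate 1 (adjusted p = 0.00272) and was 1.43 ± 0.32 in Sel1L KO (adjusted p = 0.0506).

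Some sums of cell type markers differed with genotype in BAT. The values are FPKM without median-ratio scaling, and the median gene in Hrd1 KO lay 0.42 (log2) above WT. Median-ratio factors were 1.32 and 1.17 in Hrd1 KO against 0.869 to 0.945 in WT. Higher marker values in Hrd1 KO, Plin1 and the endothelial sum among them, are therefore not set apart from that shift. The summed FPKM of 10 brown adipocyte markers was 25332 to 28776 in WT and lower in every knockout library, at 18919 to 24719 in Hrd1 KO and at 21253 to 25208 in Sel1L KO. This sum was mostly Fabp4, at 15755 to 17463 FPKM in WT, and single markers did not all follow it. Plin1 was 480 to 575 FPKM in WT and higher in Hrd1 KO, at 810 and 824. Cidea overlapped WT in both knockouts. Ucp1 was 2041 to 2709 FPKM in WT, 1138 and 1358 in Hrd1 KO and 3453, 1266 and 1587 in Sel1L KO. Dio2, which activates thyroid hormone, was 33.48 to 41.62 FPKM in WT, 5.77 and 4.69 in Hrd1 KO and 286.14, 13.23 and 8.37 in Sel1L KO. For 8 macrophage markers the summed FPKM of WT libraries was 38.1 to 49.0, of Hrd1 KO libraries 72.5 to 74.0 and of Sel1L KO libraries 77.8 to 148, with 6, 7 and 7 of them at a mean of at least 1 FPKM and none at 0 in every library. The sum of 5 fibroblast markers was 68.2 to 97.7, 139 to 173 and 143 to 158, that of 5 endothelial markers 65.0 to 87.5, 106 to 138 and 69.0 to 119, with all 5 of each at a mean of at least 1 FPKM in every group. The sum of 6 skeletal muscle markers was 1.17 to 3.08 in WT, 10.8 and 308 in Hrd1 KO and from 0.95 to 55.5 in Sel1L KO, with 1, 6 and 4 of 6 at a mean of at least 1 FPKM. The sum of 6 lymphocyte markers was 0.89 to 1.69, 1.61 to 2.40 and 1.19 to 8.22, with 0, 1 and 2 of 6 at that mean. Plasma cells are rich in Derl3, and the sum of 6 plasma cell markers was 8.14 to 47.8, 5.66 to 18.3 and 9.32 to 100.3, overlapping between all groups, with 2, 3 and 3 of 6 at that mean. This sum was mostly Irf4 in the highest libraries, at 46.25 FPKM in WT replicate 1 and 81.17 in Sel1L KO replicate 1. Sdc1 did not overlap WT, at 0.60 to 1.11 FPKM in WT, 2.35 and 2.66 in Hrd1 KO and from 1.37 to 1.93 in Sel1L KO. Pou2af1 was at most 0.03 FPKM in WT, 0.09 and 0.11 in Hrd1 KO and at most 0.14 in Sel1L KO. Mzb1 was at 0 in every WT library and at most 0.42 FPKM elsewhere, Tnfrsf17 at most 0.19 and Jchain 0.83 to 3.63, 1.25 to 11.96 and 5.66 to 16.80. Derl3 was 27.90 and 31.72 FPKM in Hrd1 KO replicates 1 and 2, where the muscle markers summed to 308 and 10.8. The part of these cells, and of the brown adipocytes, in the BAT results was not tested.

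The genes whose log2 values followed the targeted genes most closely over the libraries of a system are given as a description, as points share genotype and replicate. SEL1L in 9 HEK293T libraries had Pearson r of 0.970 with COL5A2, 0.948 with INVS and 0.942 with FLRT3. SYVN1 had r of 0.902 with ADK, 0.880 with MNX1-AS1 and 0.876 with an unnamed gene. In the 8 BAT libraries, Sel1l had r of 0.984 with Rnd1, 0.975 with Kat8 and 0.971 with H1f10, and Syvn1 of 0.996 with Psmb9, 0.996 with Selenok and 0.994 with Ik. None of these is a member. Among the members themselves, SEL1L and SYVN1 were the pair with the lowest r in HEK293T, at -0.71, and DERL3 and HERPUD1 the pair with the highest, at 0.86. With each group's mean subtracted these were -0.69 and -0.094, so the likeness of DERL3 and HERPUD1 lay between the groups and not within them. In BAT the highest was 0.98, of Derl2 with Herpud1, and the lowest -0.30, of Syvn1 with Erlec1. Without Sel1L KO replicate 1 the r of Syvn1 with Erlec1 was 0.47, that of Derl2 with Herpud1 0.96, and those of Sel1l and Syvn1 with the genes named above 0.973 to 0.991.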

How the data were processed

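PolyA RNA was sequenced as paired-end reads. The authors aligned them to GRCh38 or GRCm38 (STAR 2.7.8a) and estimated abundance with RSEM 1.3.3, and the values they deposited are FPKM per gene and library to 2 decimals. FPKM depends on a library's most abundant genes, and RSEM divides reads shared by similar genes by estimate. The authors tested counts with DESeq2, which was not repeated because FPKM values are not counts. Groups were taken from the sample labels, and all 17 libraries were used. Libraries of a group correlated at 0.871 to 0.942 in HEK293T and 0.874 to 0.955 in BAT (Pearson, log2 values).

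Tests used limma 3.58.1 in R 4.3.3 (lmFit, contrasts.fit, eBayes with a trend) on log2(FPKM + 0.1), with the 3 genotypes of a system in 1 fit. Genes with at least 1 FPKM in 3 HEK293T or 2 BAT libraries were tested. The procedure was run on simulated data with independent noise in each library. These held no pairing by replicate number, no shift of the median gene and no library that stood apart. The simulation therefore does not cover those features of the data. In HEK293T, deviations from the group means correlated at 0.216 to 0.485 in all 9 same-numbered pairs and at -0.40 to 0.027 in 18 pairs of unlike number. The numbers therefore pair these libraries, and the fit with a block is quoted wherever a call differs under it. Alternatives were other pseudocounts, no filter, median-ratio scaling, quantile normalization, array weights, only the 2 genotypes compared, the replicate block and leaving out each library. The genes named were all 10 members, genes of 3 pathway lists that were called, with HSPA5, DNAJB9, EDEM1 and DDIT3 always, and the 3 genes most alike SEL1L and SYVN1 in each system. The members and lists were chosen with earlier results of these data known. Gene positions come from GENCODE annotation of the same builds. Tables were handled with pandas 2.3.3 and NumPy 2.4.6, and plots drawn with matplotlib 3.10.9 in Python 3.11.15.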

Additional observations from a re-analysis of the deposited data

How the results depend on the processing

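In HEK293T, the members called in HRD1 KO against WT went from 1 to 2 with the replicate block, to 2 with the block and median-ratio scaling together, to 2 at an unadjusted p under 0.05 and to 0 with only the 2 genotypes compared. In SEL1L KO against WT 1 became 2 with the block, 2 with the block and median-ratio scaling and 4 at the unadjusted p, and between the knockouts 0 became 2 at the unadjusted p. The gene added by the block is HERPUD1. Over all genes tested, the block raised the calls from 9 to 25 in HRD1 KO and from 5 to 12 in SEL1L KO. At the unadjusted p, 149 of 15796 genes were higher and 167 lower in HRD1 KO, and 113 and 123 in SEL1L KO. Between the knockouts these were 186 and 183. The block with scaling, and the BAT fit that joins scaling with leaving out Sel1L KO replicate 1, were chosen after seeing the data, as were the medians and correlations without that library. Pseudocounts of 1 and 0.01, no filter on low values, median-ratio scaling, quantile normalization and array weights left each HEK293T count as it was. Leaving out 1 library gave 0 to 1 members in each knockout against WT and 0 between the knockouts.

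In BAT, Hrd1 KO against WT gave 1 member, and 3 at an adjusted p under 0.05, 3 with array weights, 5 with only the 2 genotypes compared, 2 with median-ratio scaling without Sel1L KO replicate 1, and 0 with median-ratio scaling, quantile normalization, a pseudocount of 1, no filter or the replicate block. Sel1L KO against WT gave 1, and 0 with median-ratio scaling, quantile normalization, a pseudocount of 1, no filter, the 2 genotypes compared or the replicate block. In both main fits the member was Derl3, which passed the filter through the knockout libraries alone, so nothing is read from either count of 1. Hrd1 KO against Sel1L KO gave 0, and 1 with array weights and with median-ratio scaling without Sel1L KO replicate 1. Leaving out 1 library gave 0 to 5, 0 to 1 and 0 to 1 members in this order. The highest of these, 5, is without Sel1L KO replicate 1. With median-ratio scaling added to that fit, Derl3 and Sel1l were still called, and Syvn1, Derl1 and Herpud1 were not. Over all genes, 36 of 12473 were called higher in Hrd1 KO in the main fit, and this number rose as well. It was 546 at an adjusted p under 0.05, 350 with array weights and 349 of 11968 with only the 2 genotypes compared. Without Sel1L KO replicate 1 it was 727 of 12299, and 101 with median-ratio scaling. Between the knockouts, 3 genes were called higher and 6 lower with array weights, and 2 and 4 with scaling without that library. The replicate numbers do not pair the BAT libraries, since deviations correlated at -0.060 to 0.077 in their 7 same-numbered pairs. With the block the calls over all genes in Hrd1 KO against WT went from 46 to 5. The cause of these moves was not tested.

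No member that was called turned its direction. The turns were in uncalled log2 fold changes, from -0.95 (Syvn1 between the BAT knockouts) to 0.42 (Ube2j1 in BAT Sel1L KO). In HEK293T SEL1L KO, DERL1 turned from -0.01 to 0.0431 with median-ratio scaling, also with the block, to 0.0607 with quantile normalization and to 0.21 with array weights, and FAF2 from -0.04 to 0.0208 with median-ratio scaling, also with the block, and to 0.018 with quantile normalization. Between the HEK293T knockouts UBE2J1 turned to 0.0669 with array weights. Without 1 library, changes that crossed 0 ranged as follows. In HRD1 KO, UBE2J1 was -0.0073 to 0.47 and FAF2 -0.14 to 0.16. In SEL1L KO, OS9 was -0.0773 to 0.18, DERL1 -0.15 to 0.15, DERL2 -0.0383 to 0.32 and FAF2 -0.17 to 0.10. Between the knockouts, ERLEC1 was -0.0258 to 0.32, UBE2J1 -0.29 to 0.18, HERPUD1 -0.0656 to 0.59 and FAF2 -0.10 to 0.17.

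In BAT Hrd1 KO, Erlec1 turned to -0.24 with median-ratio scaling, -0.15 with quantile normalization and -0.25 with scaling without Sel1L KO replicate 1. In Sel1L KO, Sel1l turned to -0.0221 with quantile normalization, -0.37 with array weights and -0.53 with scaling without replicate 1, and in the last of these Os9 was -0.0326 and Ube2j1 -0.10. Between the knockouts with median-ratio scaling, Os9 was -0.11, Erlec1 -0.10 (-0.0910 also without replicate 1), Derl2 -0.34, Ube2j1 -0.30, Herpud1 -0.18 and Faf2 -0.21. With quantile normalization Derl2 was -0.16, Ube2j1 -0.20 and Faf2 -0.0716, and with the replicate block Derl2 was -0.0019, Derl3 -0.0080, Ube2j1 -0.0484 and Herpud1 -0.0397. Without 1 library, Sel1l in Sel1L KO was -0.36 to 0.45 and Erlec1 -0.12 to 0.0304. Between the knockouts Syvn1 was -1.66 to 0.11, Derl2 -0.16 to 0.29, Derl3 -0.27 to 1.16, Ube2j1 -0.12 to 0.40, Herpud1 -0.30 to 1.03 and Faf2 -0.0047 to 0.32. Read depth was not given, which leaves the counting error of low genes such as Derl3 in WT unknown.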
